A study of Oryza sativa with 12 samples.

Results

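Transcript levels in 2 mm panicles of the rice mutant osmads1 were set against those of wild-type panicles of the same length. The 6 arrays of this stage, 3 from osmads1 and 3 from wild type, were chosen by their labels out of 12 arrays in the series, and 57194 of the 57381 probe sets were tested after the array maker's control probe sets were left out. The labels place panicles of this length at an early flower stage, when the inner floral organs are being initiated. The other 6 arrays, from longer panicles, served only to estimate the spread between replicates.

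Both groups came from plants grown in a paddy field without special treatment, and total RNA of whole panicles was labelled. The mutant allele, the genetic background of either genotype and the time of day at which panicles were taken are not given in the labels. The 3 arrays of a group are biological replicates per the design text, and this small number limits the precision. A whole panicle holds branch, spikelet and floret meristems and early organs, so that fewer cells of a type and less RNA per cell cannot be told apart. Levels below are log2 probe set values. Each difference subtracts the wild-type mean from the osmads1 mean on that scale and carries its SE. A probe set was called when its adjusted p from limma was under 0.05.

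OsMADS1 is a SEPALLATA-like (E class) MADS-box transcription factor of grasses. Proteins of this class form complexes with the B, C, D and AGL6-type MADS-box proteins that specify lodicules, stamens, carpels and ovules, and they also act in ending the activity of the floret meristem. Loss of OsMADS1 in rice is known for leaf-like outer organs and disturbed inner organs of the floret.

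The label of the samples was checked first on the OsMADS1 transcript itself. Its single probe set read 5.25, 4.27 and 5.04 in the osmads1 arrays and 10.57, 10.93 and 10.90 in the wild-type arrays. The groups lay far apart, and the lowest mutant value was still above the upper quartile of the reporter control probe sets, 3.30, which stands here for the level of probe sets with no rice target. The difference was -5.94 ± 0.31 (adjusted p = 4.58e-08). Markers of panicle and floret meristems were bright in both genotypes. Averaged over the 7 measured ones (OSH1, RFL, FON1, LOG, OsMADS14, OsMADS15 and OsMADS34), the log2 level was 9.49 to 9.72 in osmads1 and 9.65 to 9.71 in wild type, and only OSH1 among them was called.

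Over all probe sets, 3144 were higher (5.50 percent) and 3593 lower (6.28 percent) in osmads1, 11.8 percent in all. Taken as genes, each by its brightest probe set at this length, 1825 of 17905 were higher and 2168 lower, or 22.3 percent. Arrays of the genotypes did not overlap in 46.0 percent of the genes. Most of these changes were small, with a median size of 1.37-fold among the called genes. The split by direction depended on size. Of all called genes 45.7 percent were higher, whereas of the 430 that changed at least 2-fold, 2.40 percent of all genes, 316 were higher and 114 lower, 73.5 percent higher. Among genes changed at least 4-fold 71 were higher and 37 lower. At 8-fold or more the counts were 22 and 7, at 16-fold or more 5 and 4, and at 32-fold or more 3 and 3. Split into 4 equal bins by mean level, the genes were called in 8.62 percent of the dimmest bin and in 28.5, 26.4 and 25.6 percent of the bins above it.

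**Figure D1:**
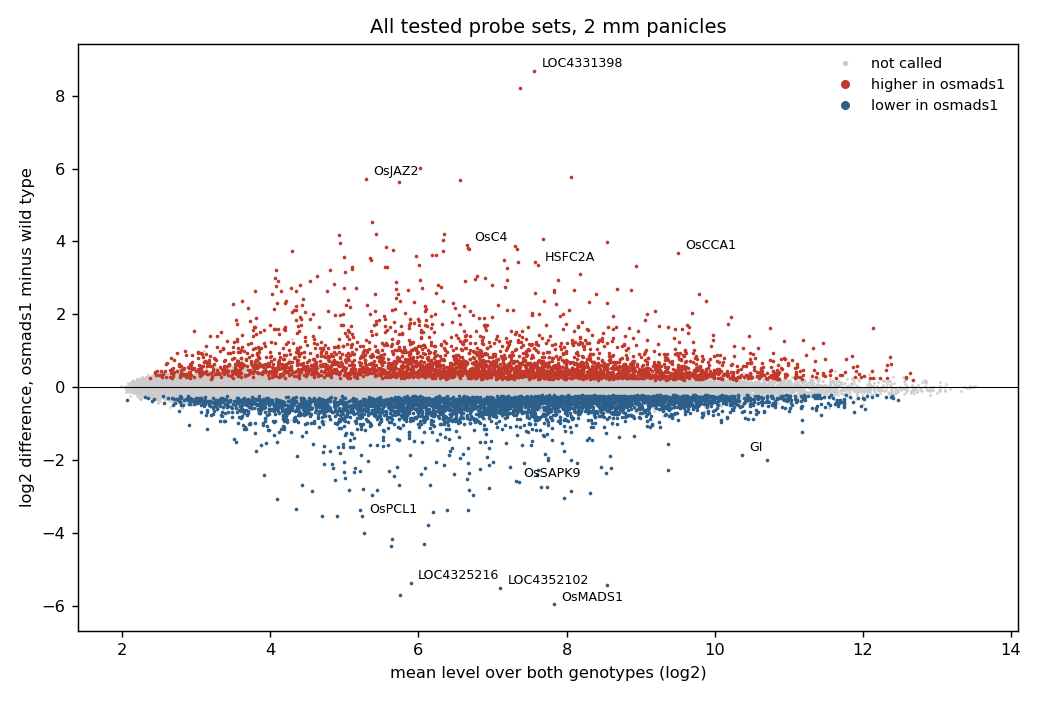
Log2 difference (osmads1 minus wild type, vertical axis) against the mean log2 level over both genotypes (horizontal axis) for the 57194 tested probe sets, with called probe sets in red (3144 higher in osmads1) and blue (3593 lower). Both probe sets of LOC4331398 are at the top, and OsMADS1 is among the lowest points.

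The floral MADS-box genes act together in setting organ identity. Of 18 measured members 9, OsMADS1 itself among them, were lower, 50 percent against 12.1 percent of all genes, and 0 higher by limma, and at an unadjusted p under 0.05 these counts were 9 and 1. The members' median difference was -0.44, against -0.016 for all genes. The 9 calls remained without any single array. Of the AGL6-type genes, OsMADS17 read 6.20, 5.66 and 6.07 in osmads1 and 7.90, 8.16 and 8.04 in wild type. OsMADS6, the other AGL6-type gene, read 7.86, 7.42 and 7.66 in osmads1 and 9.49, 9.55 and 9.56 in wild type. In both genes every mutant array was far below every wild-type array.

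The E class genes divided. OsMADS7 read 6.74, 6.80 and 6.71 in osmads1, against 8.30, 8.98 and 8.92 in wild type. OsMADS8 read 7.02, 7.12 and 7.07 in osmads1, against 8.78, 9.28 and 9.11 in wild type. For both genes the mutant arrays lay close together while the wild-type arrays were spread, with wild-type array 1 the lowest. OsMADS5 read 10.34, 10.79 and 10.67 in osmads1 and 10.39, 10.51 and 10.47 in wild type, so that its groups overlapped (0.14 ± 0.11, adjusted p = 0.505). OsMADS34, which acts in branch and spikelet meristems, also overlapped (0.22 ± 0.12, adjusted p = 0.31).

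Among the organ identity genes, OsMADS16, the B class gene of stamens and lodicules, read 7.32, 7.73 and 7.64 in osmads1 and 8.25, 8.69 and 8.47 in wild type. Its B class partners OsMADS4 and OsMADS2 lay apart between genotypes as well, with differences of -0.82 ± 0.15 and -0.46 ± 0.086. The C class gene OsMADS58 read 3.99, 4.26 and 4.79 in osmads1 and 5.27, 6.14 and 5.57 in wild type. The other C class gene, OsMADS3, and the ovule genes OsMADS13 and OsMADS21 were at levels near or within those of the reporter controls in osmads1 and, for the ovule genes, also in wild type.

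**Figure D2:**
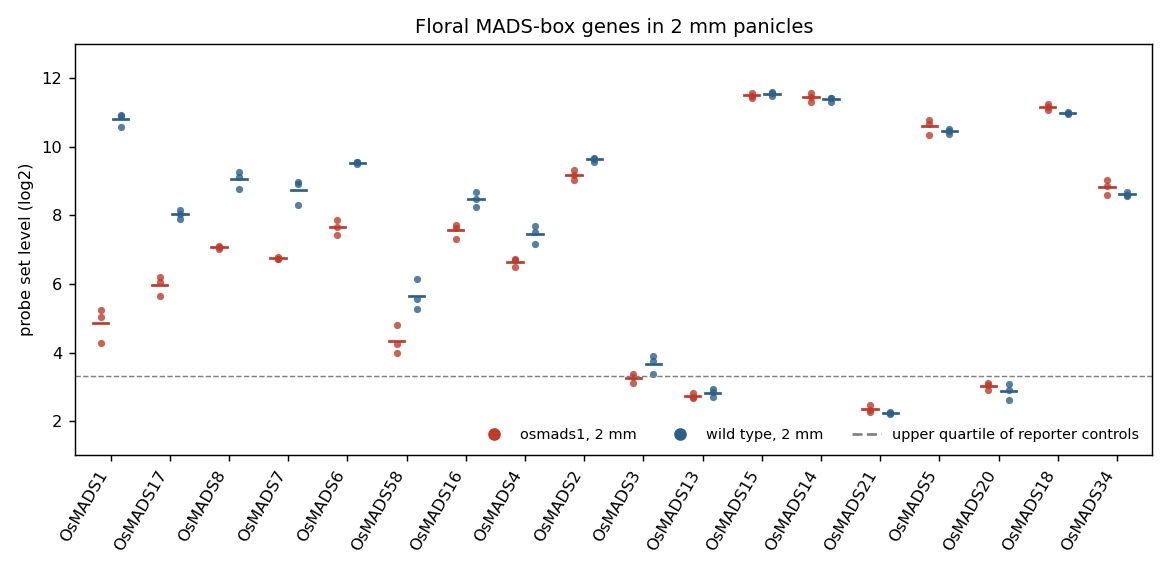
Log2 level of each of the 18 floral MADS-box genes (horizontal axis, ordered by difference) on each array, osmads1 in red at the left of each pair and wild type in blue, with a bar at the mean of 3 arrays and a dashed line at the upper quartile of reporter controls, 3.30. The 9 genes at the left were called lower, and at the right OsMADS5, OsMADS14, OsMADS15, OsMADS18 and OsMADS34 were bright in both genotypes.

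OsMADS1 lies on chromosome 3 beside DL, a YABBY gene needed for carpels and leaf midribs, which is its next measured gene in the order of the reference (assembly ASM3414082v1). DL read 6.56, 5.60 and 6.34 in osmads1 and 6.25, 6.50 and 6.53 in wild type. Its groups overlapped and it did not pass (-0.26 ± 0.19, adjusted p = 0.494). Of the 20 measured genes on each side of OsMADS1, 40 in all, 3 were higher and 6 lower, 22.5 percent, next to 22.3 percent of all genes. The largest absolute difference among them was 0.71, so that no neighbour changed 2-fold. By chromosome the share of genes called ran between 20.5 percent on chromosome 4 and 26.8 percent on chromosome 12.

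Of 25 genes of meristem and organ patterning, 1 was higher and 5 lower. These were 4 and 20 percent, against 10.2 and 12.1 percent of all genes. The members' median difference was -0.19, and at an unadjusted p under 0.05 the counts were 1 higher and 9 lower. OsSPL14, a promoter of panicle branching, read 11.33, 11.30 and 11.26 in osmads1 and 10.75, 10.66 and 10.64 in wild type (0.61 ± 0.091, adjusted p = 0.000579). It was 1 of 4 members of the 12 measured SPL genes that rose, 33.3 percent against 10.2 percent of all genes. By limma 0 were lower, against 12.1 percent of all genes. At an unadjusted p under 0.05 the counts were 5 higher and 1 lower, and 1 was called lower without osmads1 replicate 1. SPL1 (0.49 ± 0.076) was another of the higher SPL genes. GRXC3, a glutaredoxin also named ROXY2, read 8.84, 8.57 and 8.81 in osmads1 and 9.48, 9.68 and 9.45 in wild type (-0.80 ± 0.095, adjusted p = 0.000103). Without osmads1 replicate 2 a second patterning gene passed as higher.

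The KNOX genes keep meristem cells undifferentiated. OSH6 read 8.57, 8.74 and 8.58 in osmads1 and 9.21, 9.22 and 9.28 in wild type (-0.61 ± 0.084, adjusted p = 0.000346). OSH1 read 10.75, 10.89 and 10.81 in osmads1 and 11.23, 11.13 and 11.15 in wild type (-0.35 ± 0.080, adjusted p = 0.0111), and its call was lost without wild-type replicate 1. In total 1 of 9 KNOX genes was higher, OSH45 (0.33 ± 0.067, adjusted p = 0.00555), and 3 were lower. These were 11.1 and 33.3 percent, against 10.2 and 12.1 percent of all genes. The third lower gene, HOS13 (-0.29 ± 0.083, adjusted p = 0.0349), needed osmads1 arrays 1 and 3 and wild-type arrays 2 and 3 for its call. A second OSH1 probe set was not called (-0.34 ± 0.16, adjusted p = 0.231). OSH43, not called on its brightest probe set, was higher on a dimmer one (0.46 ± 0.13, adjusted p = 0.0366).

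The YABBY genes, which act on the lower side of lateral organs in many plants, differed in direction. OsYABBY1 read 9.10, 8.08 and 8.69 in osmads1 and 9.35, 9.83 and 9.44 in wild type (-0.92 ± 0.21, adjusted p = 0.0109), a call lost without wild-type replicate 2 and with no shrinkage of variances (adjusted p = 0.0554). OsYAB2 read 8.87, 8.29 and 8.62 in osmads1, all above the wild-type mean of 7.96 ± 0.040 (SD, n = 3), and its groups did not overlap (0.64 ± 0.12, adjusted p = 0.00346). Of 7 measured YABBY genes these were the only ones called, and without osmads1 replicate 2 a second one was higher. With all arrays each direction held 14.3 percent of the list, against 10.2 percent of all genes higher and 12.1 percent lower.

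Most DNA replication genes were lower. Of 30 measured members 24 were lower and 0 higher by limma, against 12.1 percent of all genes lower, and at an unadjusted p under 0.05 the counts were 24 lower and 1 higher. Their median difference was -0.48. OspolD1, the catalytic subunit of DNA polymerase delta, read 8.82, 8.47 and 8.64 in osmads1 and 9.62, 9.65 and 9.73 in wild type (-1.02 ± 0.087, adjusted p = 5.17e-06). All 6 subunits of the MCM2 to MCM7 helicase were lower, with differences between -0.85 for OsMCM2 and -0.72 for OsMCM4. OsMCM2 read 10.16, 9.87 and 9.93 in osmads1, against 10.75, 10.90 and 10.85 in wild type.

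Other steps of replication took part. OsORC3 of the origin recognition complex (-0.86 ± 0.13), the clamp loader subunit OsRFC3 (-0.71 ± 0.082) and the sliding clamp OsPCNA (-0.48 ± 0.10) were lower. Of the 6 members not called, OsMCM8, OsMCM9 and OsRPA70a had differences above 0, and OsRPA70a came nearest to the threshold (0.21 ± 0.064, adjusted p = 0.0531). In 23 of the 24 lower genes, osmads1 replicate 2 was the lowest of the 3 mutant arrays. The same array was the lowest in 1462 of the 2168 genes called lower. Leaving out any single array left between 17 and 22 replication genes lower.

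Of 25 genes of small RNA and DNA methylation pathways 1 was higher and 10 lower, or 40 percent lower against 12.1 percent of all genes, with a median of -0.19. MET1-2, a maintenance methyltransferase for CG sites, read 8.96, 8.59 and 8.75 in osmads1 and 9.77, 9.79 and 9.58 in wild type (-0.95 ± 0.10, adjusted p = 5.18e-05). MET1-1 (-0.81 ± 0.093) and OsCMT3a, which acts at CHG sites (-0.83 ± 0.091), were lower, whereas OsAGO4a, an Argonaute of the RNA-directed pathway, was not called (0.063 ± 0.063, adjusted p = 0.663). The count of lower members was 6 without wild-type replicate 2. The higher one, OsAGO1b, needed osmads1 arrays 2 and 3 and wild-type arrays 1 and 2 for its call on its brightest probe set. Another OsAGO1b probe set was also higher (0.73 ± 0.10, adjusted p = 0.000435).

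Of 32 kinesins 14 were lower, 43.8 percent against 12.1 percent of all genes, and 1 was higher, with KIN14A at -0.59 ± 0.084, KIN14R at -0.59 ± 0.092 and KIN8B at -0.50 ± 0.065. The count of lower kinesins was 9 without wild-type replicate 3, and the higher one, KIN7J, needed osmads1 arrays 1 and 3 and wild-type arrays 1 and 2. Of 41 cyclin and cyclin-dependent kinase genes 2 were higher and 3 lower by limma, with CYCA2-1 at -0.49 ± 0.083. These shares, 4.88 and 7.32 percent, lay below the 10.2 and 12.1 percent of all genes. The count of lower members of this list was 1 without osmads1 replicate 3 or without wild-type replicate 2. At an unadjusted p under 0.05, however, 4 members were higher and 11 lower. The median difference of the list was -0.1055, against -0.016 for all genes, with 26 of the 41 members below 0.

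**Figure D3:**
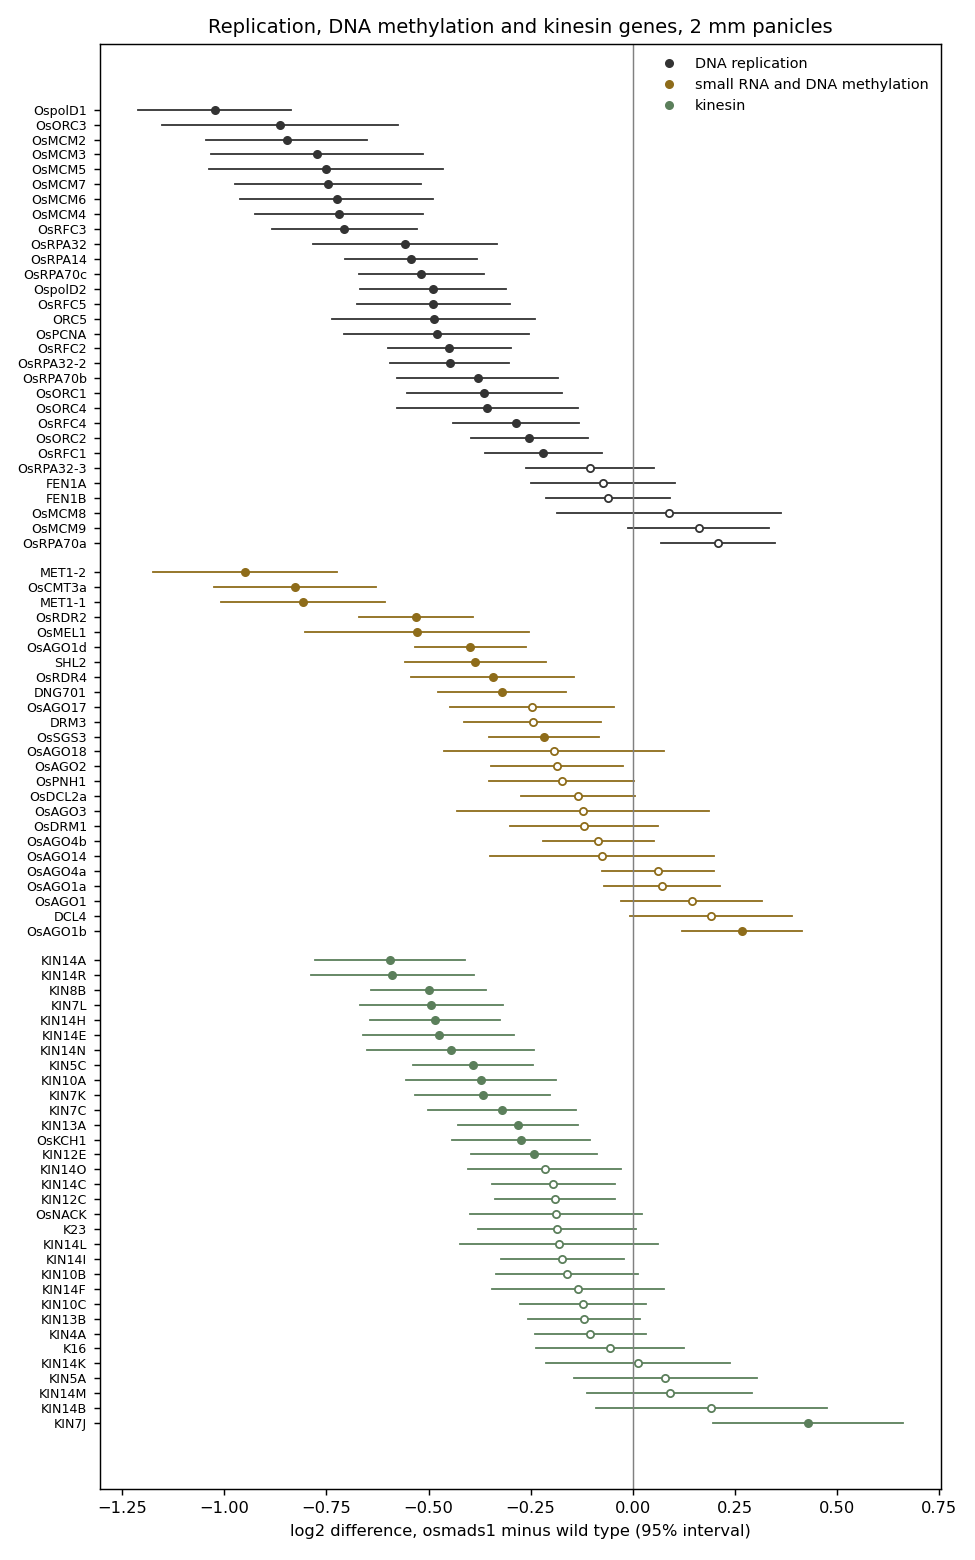
Log2 difference (osmads1 minus wild type, horizontal axis) with its 95% interval for every measured member of the DNA replication (black), small RNA and DNA methylation (brown) and kinesin (green) lists, filled where called. In each list most points lie left of 0, and the replication list reaches from -1.02 for OspolD1 to 0.21 for OsRPA70a.

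Clock genes gave some of the widest separations. In plants the morning factor CCA1 and the evening factor PRR1 (TOC1) repress each other in a daily cycle, in which the LUX homologue PCL1 and GI also belong to the evening. OsCCA1 read 11.34, 11.36 and 11.35 in osmads1 and 7.89, 7.46 and 7.64 in wild type. OsPCL1 read 3.22, 3.60 and 3.58 in osmads1 and 6.91, 7.17 and 6.93 in wild type. The mutant arrays of OsCCA1 were almost equal, and neither gene's groups came near to overlapping.

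GI read 9.40, 9.50 and 9.41 in osmads1 and 11.22, 11.29 and 11.38 in wild type (-1.86 ± 0.068, adjusted p = 1.37e-09). OsPRR1 read 6.33, 6.16 and 6.43 in osmads1 and 7.48, 7.38 and 7.51 in wild type (-1.15 ± 0.095, adjusted p = 3.88e-06). The pseudo-response regulators OsPRR37, OsPRR73 and OsPRR95 were not called on their brightest probe sets, with differences of -0.067, 0.14 and 0.20. A dimmer OsPRR73 probe set, at mean levels of 6.41 in osmads1 and 6.04 in wild type, was higher (0.37 ± 0.10, adjusted p = 0.0306). Read by brightest probe set, 1 of the 7 measured clock genes was higher and 3 lower, and without osmads1 replicate 1 a second one was higher. With all arrays the shares were 14.3 percent higher and 42.9 percent lower, against 10.2 and 12.1 percent of all genes. Harvest time was not tested, since the labels do not give it.

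LEA proteins and dehydrins are known to accumulate under drought and abscisic acid. Of 9 LEA and dehydrin genes 6 were higher, against 10.2 percent of all genes, and 0 lower by limma or at an unadjusted p under 0.05, with a median difference of 0.70. RAB21, a dehydrin, read 8.85, 10.96 and 10.27 in osmads1 and 7.17, 7.37 and 7.49 in wild type (2.69 ± 0.36, adjusted p = 0.000273). RAB16B, a related dehydrin also on chromosome 11, read 8.48, 9.71 and 9.31 in osmads1 and 5.92, 7.02 and 6.58 in wild type (2.66 ± 0.30, adjusted p = 6.52e-05). The groups did not overlap for either gene, but osmads1 array 1 was well below the other mutant arrays, and without it the RAB21 difference was 3.27.

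Homeodomain genes of the HD-Zip I class with known drought response followed the same order of arrays. OsHox24 read 5.18, 6.76 and 6.36 in osmads1 and 3.35, 3.42 and 3.56 in wild type (2.65 ± 0.32, adjusted p = 9.83e-05). OsHox22 read 4.75, 5.67 and 5.53 in osmads1 and 4.19, 4.18 and 4.33 in wild type (1.09 ± 0.20, adjusted p = 0.00301). Over the whole homeodomain list 7 of 33 were higher and 2 lower, 21.2 and 6.06 percent against 10.2 and 12.1 percent of all genes. The count of higher ones was 4 without osmads1 replicate 3 or without wild-type replicate 3. The 2 lower ones became 1 without osmads1 replicate 2 or without wild-type replicate 2.

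Of 8 NAC genes 4 were higher, against 10.2 percent of all genes, and 0 lower by limma or at an unadjusted p under 0.05. OsNAC6, a stress-induced activator, read 8.09, 8.71 and 8.42 in osmads1 and 6.91, 7.16 and 7.21 in wild type (1.31 ± 0.13, adjusted p = 2.71e-05). OsNAC4 (1.06 ± 0.15), OsNAC5 (1.01 ± 0.084) and OsNAC3 (0.89 ± 0.12) were the others. In all 6 LEA and dehydrin genes called, osmads1 array 1 was the lowest and array 2 the highest of the mutant, and array 1 was also the lowest for 3 of the 4 NAC genes. Among all 1825 genes called higher, array 1 was the lowest in 995.

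The kinases and phosphatases of abscisic acid signalling did not move one way. OsSAPK9, a SnRK2 kinase, read 6.03, 6.03 and 6.01 in osmads1 and 8.48, 8.68 and 8.62 in wild type (-2.57 ± 0.077, adjusted p = 1.93e-10). OsSAPK10 was lower too (-0.93 ± 0.10), while the phosphatase genes OsPP2C39 (1.04 ± 0.20) and OsPP2C09 (0.92 ± 0.10) were higher. Of 65 members of this list 15 were higher and 13 lower, 23.1 and 20 percent against 10.2 and 12.1 percent of all genes. The count of higher ones was 9 without osmads1 replicate 2 or without osmads1 replicate 3.

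**Figure D4:**
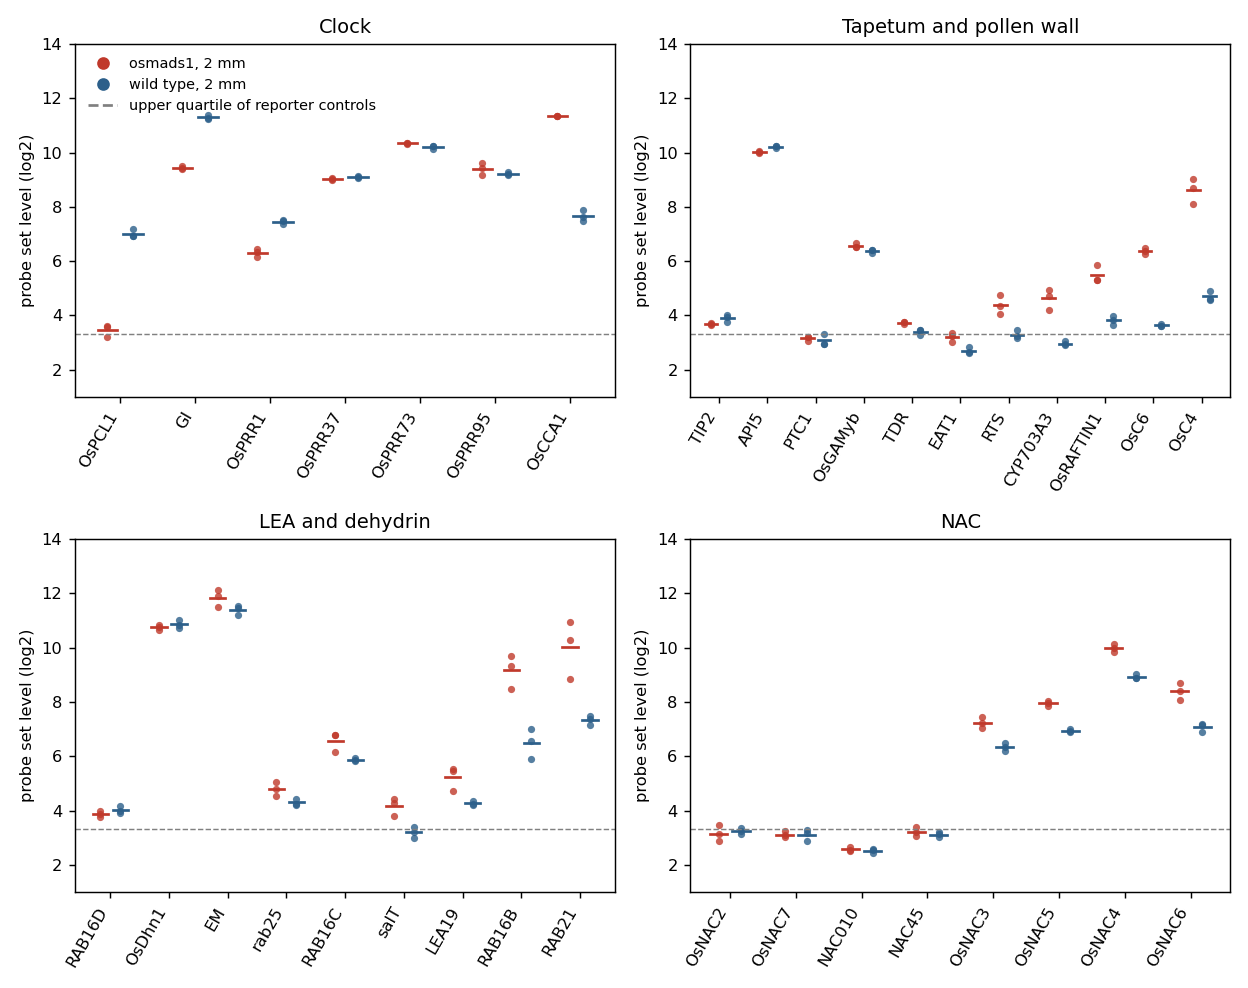
Log2 level on each array for every measured clock, tapetum and pollen wall, LEA and dehydrin, and NAC gene, osmads1 in red at the left of each pair and wild type in blue, with a bar at the mean of 3 arrays and a dashed line at 3.30. OsCCA1 and OsPCL1 separate in opposite directions, and the mutant arrays of RAB21 spread between 8.85 and 10.96.

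The tapetum is the nurse layer of the anther and supplies the pollen wall. Of 11 genes of the tapetum and pollen wall 6 were higher, 54.5 percent against 10.2 percent of all genes, and 0 lower by limma, and at an unadjusted p under 0.05 the counts were 8 and 1. OsC4, an anther gene, read 8.11, 9.02 and 8.69 in osmads1 and 4.61, 4.91 and 4.56 in wild type (3.91 ± 0.21, adjusted p = 5.76e-08). OsC6, a lipid transfer protein, read 6.36, 6.46 and 6.25 in osmads1 and 3.62, 3.67 and 3.60 in wild type. OsRAFTIN1, a pollen exine protein, read 5.32, 5.30 and 5.84 in osmads1 and 3.99, 3.82 and 3.64 in wild type.

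Among regulators of the tapetum, TDR (0.33 ± 0.10, adjusted p = 0.058), TIP2 (-0.22 ± 0.17, adjusted p = 0.539) and PTC1 (0.080 ± 0.11, adjusted p = 0.769) were not called. EAT1 was called, but at mean levels of 3.19 in osmads1 and 2.70 in wild type, both below the reporter upper quartile, and leaving out osmads1 array 1 or 2, or wild-type array 1 or 3, ended the call. Over the 7 measured anther wall markers the mean log2 level per array was 4.25 to 4.36 in osmads1 and 3.33 to 3.40 in wild type, with 4 of the 7 called higher. In wild type 3 of the 7 were within the reporter range. The part of anther cell number in this result was not tested.

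Of 15 meiosis and germ cell genes 1 was higher and 5 lower, or 33.3 percent lower against 12.1 percent of all genes, and their median difference was -0.041. Without wild-type replicate 2 the count of lower ones was 3. CRC1, of the synaptonemal complex and pairing machinery, read 6.03, 5.62 and 5.83 in osmads1 and 6.49, 6.62 and 6.69 in wild type (-0.77 ± 0.10, adjusted p = 0.000228). MSP1, the receptor kinase that limits sporogenous cell number, read 9.89, 9.94 and 9.97 in osmads1 and 10.43, 10.59 and 10.57 in wild type. OsDMC1, a meiotic recombinase, was the higher one (0.92 ± 0.18, adjusted p = 0.00404), at 4.04, 4.35 and 4.44 in osmads1 and 3.38, 3.40 and 3.29 in wild type.

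Of 20 genes of light harvesting and photosynthesis 6 were higher and 0 lower by limma, with 8 and 0 at an unadjusted p under 0.05. By limma 30 percent were thus higher, against 10.2 percent of all genes, and 0 percent lower, against 12.1 percent. PORA, which makes chlorophyllide in the light, read 6.22, 5.36 and 5.84 in osmads1 and 4.25, 4.24 and 3.79 in wild type. OsPSAG of photosystem I read 7.70, 7.97 and 7.89 in osmads1 and 6.58, 6.40 and 6.54 in wild type. The small subunit of Rubisco was not called (OsrbcS, 0.11 ± 0.10, adjusted p = 0.609). Over the 5 measured green tissue markers the mean log2 level per array was 6.68 to 7.16 in osmads1 and 6.10 to 6.40 in wild type, with 2 of 5 higher, and the part of greener organs in this result was not tested.

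**Figure D5:**
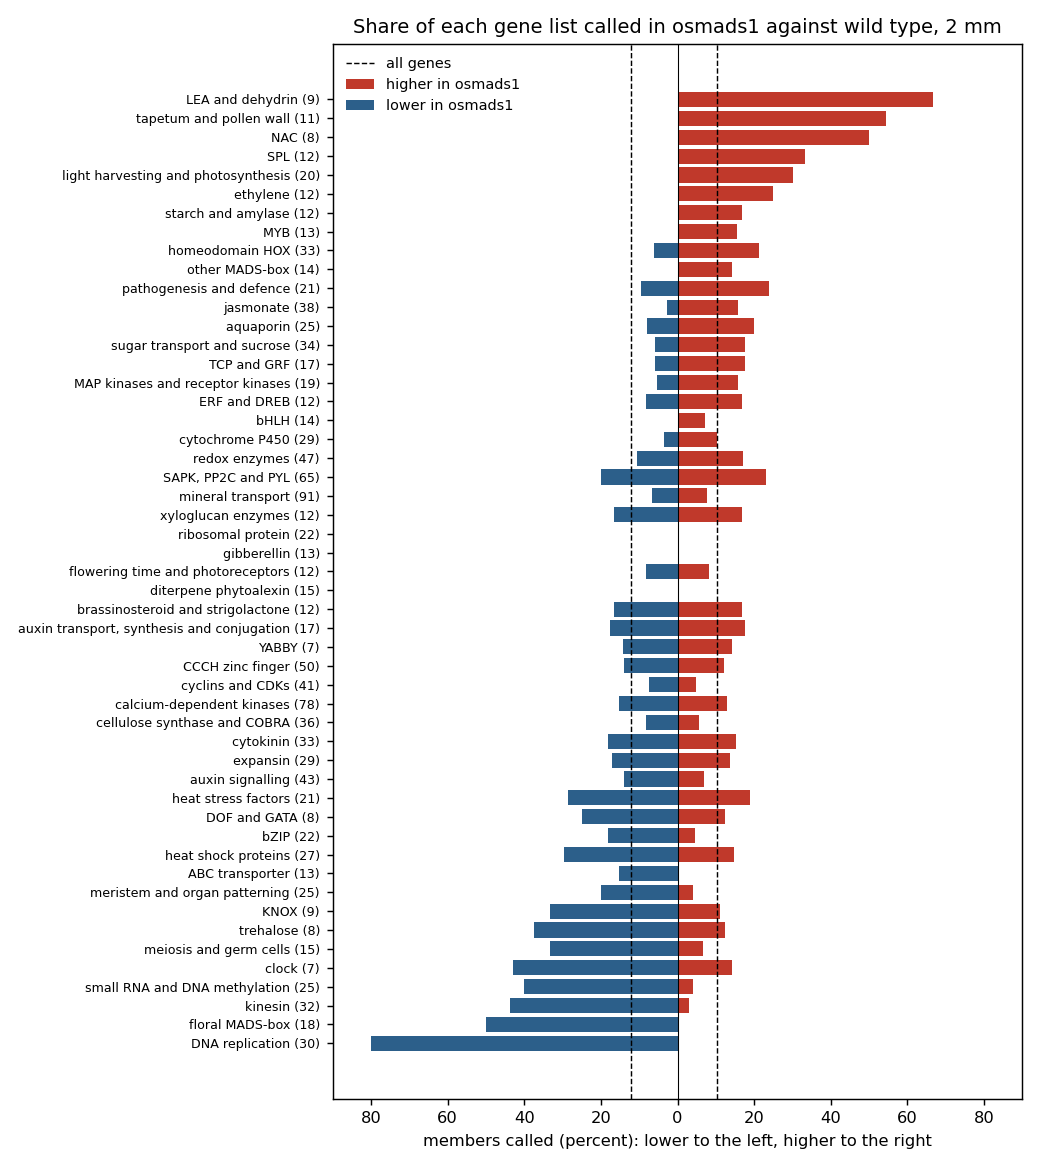
Percent of the measured members of each gene list with at least 7 (number in brackets) called higher in osmads1 (red, to the right) and lower (blue, to the left), with dashed lines at the shares over all genes, 10.2 percent higher and 12.1 percent lower. The DNA replication list reaches 80 percent lower and the LEA and dehydrin list 66.7 percent higher, while the ribosomal protein, gibberellin and diterpene phytoalexin lists have no bar.

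Heat stress factors held large changes of both signs. HSFC2A read 9.03, 9.50 and 9.34 in osmads1 and 5.93, 5.95 and 5.90 in wild type (3.36 ± 0.11, adjusted p = 3.62e-10). HSFB2C read 5.94, 6.18 and 6.16 in osmads1 and 7.71, 7.47 and 7.55 in wild type (-1.49 ± 0.14, adjusted p = 9.87e-06), and its other probe sets were lower too (-1.51 and -1.02). HSFA2A read 3.55, 4.17 and 4.17 in osmads1 and 7.08, 5.31 and 6.46 in wild type (-2.32 ± 0.32, adjusted p = 0.000348), whereas its other 2 probe sets differed by -0.68 and -0.28.

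In all 4 of 21 heat stress factors were higher and 6 lower, against 10.2 and 12.1 percent of all genes, and without wild-type replicate 2 these counts were 2 and 3. Small heat shock proteins also went both ways. OsHsp17.4 was lower (-1.64 ± 0.26), and OsHsp17.9A (0.90 ± 0.084) was higher. Of 27 heat shock protein genes 4 were higher and 8 lower, 14.8 and 29.6 percent against 10.2 and 12.1 percent of all genes.

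CCCH zinc finger genes, whose proteins bind RNA or DNA, included single genes with large rises. OsC3H40 read 8.66, 8.56 and 8.54 in osmads1 and 4.51, 4.98 and 4.79 in wild type (3.82 ± 0.10, adjusted p = 7.17e-11). OsC3H35 and OsC3H37 differed by 1.75 ± 0.12 and 1.72 ± 0.13. OsC3H2 differed by 1.29 ± 0.10 on its brightest probe set and by 5.76 on another, at mean levels of 10.93 in osmads1 and 5.18 in wild type. Of the 50 measured genes of this family 6 were higher and 7 lower, 12 and 14 percent, near the 10.2 and 12.1 percent of all genes, and 4 were lower without osmads1 replicate 3, wild-type replicate 1 or wild-type replicate 2.

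Jasmonate genes had 1 extreme member. OsJAZ2, of the family that represses jasmonate signalling, read 8.19, 8.06 and 8.20 in osmads1 and 2.30, 2.45 and 2.56 in wild type. The wild-type values were all within the range of the reporter controls, so that the difference is given as at least 28.8-fold, against the reporter upper quartile. OsJAZ6 rose by 0.73 ± 0.081. Of 38 jasmonate genes 6 were higher and 1 lower, 15.8 and 2.63 percent against 10.2 and 12.1 percent of all genes. Without osmads1 replicate 3 the count of higher ones was 3. The lower one was lost when any single array other than osmads1 replicate 1 was left out.

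Among 25 aquaporin genes 5 were higher and 2 lower, against 10.2 and 12.1 percent of all genes, with 3 higher without osmads1 replicate 2 or without wild-type replicate 1. OsNIP4;1, an aquaporin-like channel, read 6.08, 6.68 and 6.48 in osmads1 and 3.29, 3.11 and 3.18 in wild type, at least 8.65-fold higher (adjusted p = 2.83e-09). Of 8 trehalose genes 1 was higher and 3 lower, 12.5 and 37.5 percent against 10.2 and 12.1 percent of all genes. The trehalose phosphate phosphatase OsTPP1 read 5.02, 4.60 and 4.79 in osmads1 and 5.57, 7.23 and 6.34 in wild type (-1.58 ± 0.33, adjusted p = 0.00683), with the wild-type arrays widely spread. OsTPP3, of the same family, was lower with close arrays, 5.91, 5.90 and 5.92 in osmads1 and 7.00, 7.14 and 7.17 in wild type.

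Other named genes with large rises were HMG3, an enzyme of sterol and isoprenoid synthesis (1.93 ± 0.094, adjusted p = 2.14e-08), the beta-glucosidase BGLU30 (2.37 ± 0.12, adjusted p = 2.61e-08) and the chitinase Cht1, at least 4.23-fold higher (adjusted p = 2.67e-05). Cht1 read 4.62, 5.99 and 5.54 in osmads1 and 3.16, 2.92 and 3.00 in wild type. The calmodulin-like genes CML15 (-1.75 ± 0.36, adjusted p = 0.00568) and CML16 (-1.26 ± 0.23, adjusted p = 0.00249) were among the 15 largest falls of genes with informative names.

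Some families held no called gene. Of 13 gibberellin genes, 22 ribosomal protein genes, 6 WRKY genes and 15 diterpene phytoalexin genes, 0 were called by limma. Among all genes 22.3 percent were called. The ribosomal protein genes had differences below 0 in 21 of 22 cases, with a median of -0.064 against -0.016 for all genes. The median level of the diterpene phytoalexin genes was 2.835 in osmads1 and 2.889 in wild type. Both lay below the reporter upper quartile, 3.30, so the lack of calls says little about that family. At an unadjusted p under 0.05 there were 1 higher and 1 lower gibberellin gene, 0 higher and 2 lower ribosomal protein genes, and 0 of the other families.

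The largest rise of all, and several of the largest changes beside OsMADS1 and OsJAZ2, belonged to genes known in the tables only by locus number, to which no role is given here. LOC4331398 on chromosome 3 read 11.74, 12.03 and 11.94 in osmads1 and 3.03, 3.41 and 3.22 in wild type, at least 389-fold higher (adjusted p = 2.9e-14). Its second probe set was at least 287-fold higher. LOC4334518, also on chromosome 3, read 8.08, 8.92 and 8.67 in osmads1 and 2.51, 3.25 and 2.99 in wild type, at least 38.2-fold higher.

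In the other direction, LOC4352102 on chromosome 12 read 4.29, 4.58 and 4.21 in osmads1 and 9.85, 9.80 and 9.90 in wild type (-5.49 ± 0.11, adjusted p = 4.78e-12). LOC4325216 on chromosome 1 read 2.92, 3.44 and 3.28 in osmads1 and 8.69, 8.57 and 8.48 in wild type, at least 38.8-fold lower. Genes called with a level of at least 8 in one genotype and below the reporter upper quartile in the other numbered 3 bright in osmads1 and 1 bright in wild type.

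Probe sets without a gene in the platform annotation held large changes too. The one with the largest rise read 8.56, 9.42 and 9.07 in osmads1 and 3.15, 3.05 and 2.83 in wild type. The one with the largest fall read 5.69, 6.09 and 5.73 in osmads1 and 11.29, 11.24 and 11.24 in wild type. For both the groups lay far apart, with a rise of at least 52.7-fold for the first and a difference of -5.42 ± 0.12 for the second.

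Control probe sets give the state of the RNA and its labelling. In 4 of the 6 rice control pairs whose 3' and 5' probe sets both averaged above the reporter upper quartile, the arrays of the genotypes did not overlap. Among control pairs of other transcripts above the same level, 3 of 28 did not overlap. The 3' minus 5' level of the GAPDH pair was 2.64, 2.53 and 2.57 in osmads1 and 3.63, 3.57 and 3.55 in wild type (exact permutation test, two-sided p = 0.10, the smallest that 3 against 3 arrays allow). The remaining 2 of the 6 rice pairs, both of actin, overlapped between genotypes (exact permutation test, two-sided p = 0.4 and 0.3). Outside the 6, 2 more rice pairs were too dim to show a 3' to 5' difference. The cyclophilin and ubiquitin pairs and 1 of the actin pairs were lower in osmads1 too, by 0.25, 0.26 and 0.52. The part of this difference in the results above was not tested.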

How the data were processed

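Levels were measured on Affymetrix rice arrays. The deposited table holds log2 probe set values. The submitters' processing notes name Partek and RMA for them. Neither version is given in the sources used here. RMA gives no detection call. Depth in the sense of read counts does not apply to arrays, and their number limits the precision. Array medians were 4.10 to 4.13 at 2 mm and 4.93 to 5.00 in the longer panicles, whose arrays also entered the estimate of spread. The arrays of 2 mm panicles correlated at 0.996 to 0.998 within groups.

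Of 57381 probe sets 187 controls, 64 of them reporters, were left out, and 57194 were tested with limma 3.58.1 in R 4.3.3. One mean per group was fitted over all 12 arrays with eBayes and two-sided tests, with Benjamini-Hochberg adjustment over all tested probe sets. The platform annotation gave 1 gene for 22436 probe sets, several for 95 and none for 34663, and all 22436 matched the RefSeq gene table (assembly ASM3414082v1), giving 17905 genes. Each gene was read from whichever of its probe sets was brightest on average at 2 mm. Where the dim group lay below the reporter upper quartile, the fold is a lower bound against it. Control 3' minus 5' levels were tested by exact permutation. Samples were not treated as paired by replicate number. Correlations of deviations lay between 0.014 and 0.084 for equal numbers and between -0.074 and 0.027 for unequal ones. These weak values do not settle whether equal numbers mark pairs.

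Named genes were OsMADS1, the 15 largest rises and falls among called genes with informative names and arrays that do not overlap, the 6 largest among genes of any name and among probe sets without a gene, up to 4 called members each way per list, and all members of 6 lists. The text gives a subset chosen after the values were seen, and examples outside the rule (list members that were not called among them) were chosen likewise. The members and lists were chosen with earlier results of these data known, and lists were matched by gene name, with 1 gene that shared a name with another dropped from the meiosis list. Tests were tried on simulated data. Alternatives were other scalings, filters, variance settings, array weights, a replicate block, other thresholds and leaving out each array. Promoter sequences were not analysed here. Figures used matplotlib 3.10.9.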

Additional observations from a re-analysis of the deposited data

How the results depend on the processing

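The counts of 3144 higher and 3593 lower probe sets ran between 2106 and 2775 higher and between 2515 and 3132 lower when a single array was left out. With array weights they were 4989 and 5563, and with an adjusted p under 0.01 1846 and 1988. With a replicate block the counts were 2688 and 2955, although it is not known that the numbers pair the samples. Replicates 1 and 2 of osmads1 correlated best with the wild-type array of the same number, but osmads1 replicate 3 with wild-type replicate 1. The OsMADS1 difference was called under every alternative run and lay between -6.14 and -5.65 when an array was left out. All 30 of the largest named rises and falls stayed called with their sign when any single array was left out. Of 265 called genes and probe sets named by the rule, 242 stayed called with the block, 247 with only the 6 arrays of 2 mm panicles, 241 with no shrinkage and 215 to 240 when an array was left out, and none changed sign. Over all called genes 60.1 percent stayed called without any single array, and of the 430 changed at least 2-fold 422 did. Control pairs without overlap numbered 8 of 42 and 8 to 16 when an array was left out, with 13 without osmads1 replicate 2 and 16 without wild-type replicate 1. Fewer arrays overlap less easily, so a higher count is built into leaving one out. Dim probe sets carry lower bounds at best.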

Other observations

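Probe sets of one gene did not always move together. Among 3444 genes with at least 2 probe sets, the brightest was called in 759, and the second had the same direction in 76.0 percent of these. In 246 the second was called in the same direction and in 17 it was called in the opposite one. OsHsf-25 differed by 0.92 on its brightest probe set, at 8.78 in osmads1 and 7.86 in wild type, and by -1.03 on another, at 5.88 in osmads1 and 6.91 in wild type. MYBS2 differed by 0.44 on 2 probe sets and by -0.42 on another. LOC4351341 on chromosome 12 differed by -3.36 on 1 probe set and was at least 39.5-fold lower on another, while 2 others, with differences of 0.16 and -0.22, were not called.

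Chromosome 12 held the highest share of genes called and changed at least 2-fold, 34 of 908 or 3.74 percent, against 1.99 to 2.69 percent on the other chromosomes and 2.40 percent of all genes. This difference between chromosomes was not tested.

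Of 33 cytokinin genes 5 were higher and 6 lower, against 10.2 and 12.1 percent of all genes, with 3 higher when osmads1 array 2 or 3 or wild-type array 1 or 2 was left out. Single hormone genes are given as values. The strigolactone receptor gene D14 (0.85 ± 0.12, adjusted p = 0.000476) and the ethylene signalling gene EIL1A (0.72 ± 0.075, adjusted p = 3.08e-05) were higher. The cytokinin oxidase gene OsCKX3 was lower (-1.07 ± 0.15, adjusted p = 0.000296) and OsCKX11 higher (0.73 ± 0.11, adjusted p = 0.00073).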
